A study of Yarrowia lipolytica with 9 samples.

Results

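In yl_10, 1 of 3 engineered Yarrowia lipolytica strains, 87 transcripts stood apart from their levels in both other strains, yl_11 and yl_12. They were chosen from 4447 protein-coding transcripts of moderate length and abundance, out of 6366 features in the deposited tables. Of the 87, 71 were higher in yl_10 and 16 were lower. A member had to differ in its strain mean by at least 0.3 on the log2 scale from yl_11 and from yl_12 in the same direction, while yl_11 and yl_12 differed by less than 0.2. All 3 yl_10 libraries also had to lie beyond all 6 libraries of the other strains. The values were log2 CPM, with 0.5 added to each count before scaling to the library total; CPM is a share of the library. The windows were a coding length, which ran from 303 to 3993 bp in the transcripts kept, and a mean of 10 to below 1000 CPM over the 9 libraries. Levels in yl_10 against the other strains therefore chose the members. They are given below as a description, without p-values for single members.

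Yarrowia lipolytica is a dimorphic yeast that stores large amounts of neutral lipid and grows on fats and alkanes. It makes isoprenoid precursors from acetyl-CoA through the mevalonate pathway but forms no carotenoid of its own, so lycopene, the red carotenoid, requires introduced genes. Late in a flask culture, when cells leave growth, yeasts generally reset transport, storage and stress programmes. Each of these rests on many transcripts.

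All 3 strains share the host label ATCC 201249, and each group is described as carrying introduced heterologous genes. The labels name neither these genes nor the lycopene level of a strain, and they mark no strain as the parent or control. Every culture was grown for 72 h in flasks at 28 °C and 250 rpm, and 3 libraries were sequenced for each strain. The labels leave unsaid whether the libraries stem from separate cultures, so p-values measure only the spread between libraries, which may be technical. The cells were measured in bulk, so a small change in all cells and a large change in a few cannot be told apart. Library totals ran from 7035777 counts (yl_10 replicate 3) to 16424183 counts (yl_11 replicate 1). In each strain 1 library stood apart from its 2 partners: yl_10 replicate 3, yl_11 replicate 1 and yl_12 replicate 3. Within a strain, chi-square per degree of freedom was 1.73 to 2.33 for pairs without these libraries and 7.16 to 15.6 for pairs with one.

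The criteria narrowed the 4447 transcripts step by step. A difference of at least 0.3 from both other strains in the same direction was found for 142 higher and 59 lower transcripts. Levels in yl_11 and yl_12 were also within 0.2 of each other for 88 and 27 of these. The last criterion, no overlap between libraries, left 71 and 16. The yl_10 libraries lay above the other 6 for 13.6% of the 4447 transcripts and below them for 3.60%. The same rule chose 22 transcripts when yl_11 was the strain set apart, with 12 higher and 10 lower. It chose 142 for yl_12, with 34 higher and 108 lower. The 87 made up 1.96% of the transcripts in the windows, and 81.6% of them were higher in yl_10.

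**Figure D1:**
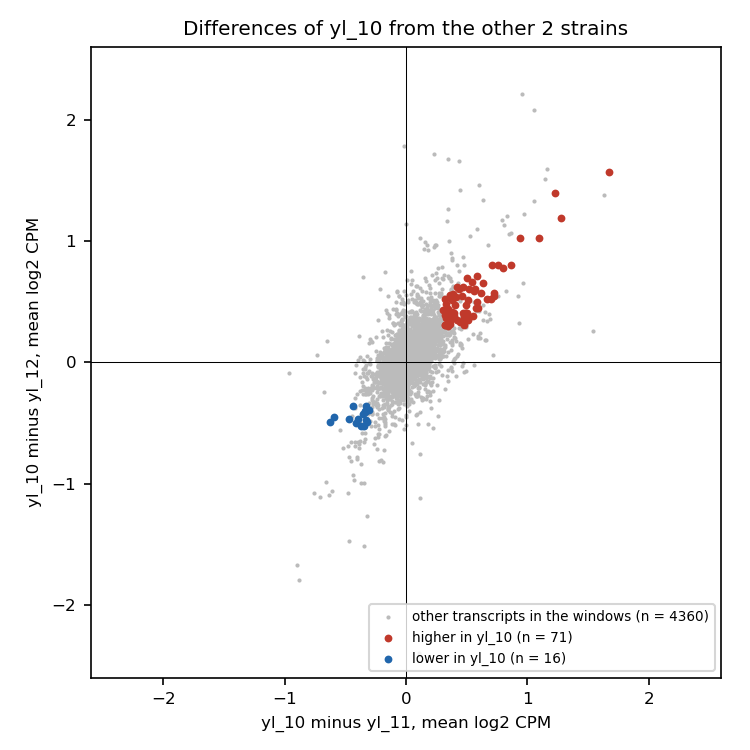
Difference of yl_10 from yl_11 (x axis) and from yl_12 (y axis) in mean log2 CPM for 4447 transcripts, with the 71 higher members in red, the 16 lower members in blue and the others in grey. The higher members reach 1.68 and 1.57 on the 2 axes, while no lower member passes -0.63 or -0.53.

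The leading member was YALI1_F07630g (XM_505015.1), about 3 times as abundant in yl_10 as elsewhere. Its CPM values were 37.2, 39.9 and 42.6 in yl_10, 10.6, 11.4 and 15.9 in yl_11, and 16.2, 14.4 and 10.4 in yl_12, in order of replicate number. The 3 yl_10 libraries were close to each other, and the lowest of them was above 2 times the highest of the other 6 (a gap of 1.20 on the log2 scale). The log2 differences were 1.68 (SE 0.19, n = 3 per strain) from yl_11 and 1.57 (SE 0.20) from yl_12, or 3.20-fold and 2.97-fold.

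YALI1_D11159g (XM_502585.1) was at 35.2, 33.8 and 43.3 CPM in yl_10, against 14.7, 15.96 and 16.9 in yl_11 and 15.8, 16.2 and 11.1 in yl_12. YALI1_D30866g (XM_503206.1) was at 46.2, 44.4 and 49.5 CPM in yl_10, then 17.9, 19.5 and 20.2 in yl_11, and 23.8, 25.5 and 14.1 in yl_12. For YALI1_F34029g (XM_505914.1) the libraries read 41.9, 39.4 and 35.1 CPM in yl_10, 15.1, 18.0 and 21.6 in yl_11, and 22.5, 22.9 and 13.3 in yl_12. In all 3 transcripts yl_12 replicate 3 was the lowest of the 9 libraries, and no yl_10 library came near the other strains. These 3 and YALI1_F07630g were the 4 members that differed by at least 1 from both strains. Their coding lengths were 1197 to 1539 bp, and their means in yl_10 were 37.5 to 46.7 CPM.

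A further set of 6 transcripts completed the 10 with the largest difference. YALI1_B02672g was at 65.6, 64.2 and 49.9 CPM in yl_10, with 26.2, 33.3 and 33.9 in yl_11 and 35.8, 31.6 and 21.9 in yl_12. YALI1_D01431g held 126, 120.2 and 125.1 CPM in yl_10, 57.2, 72.3 and 74.8 in yl_11, and 79.6, 79.2 and 56.7 in yl_12. In both, yl_11 replicate 1 and yl_12 replicate 3 were the lowest libraries of their strains. In YALI1_B19021g and YALI1_B19217g, yl_10 replicate 3 took opposite places. It was the highest yl_10 library for YALI1_B19021g (68.2, 73.7 and 92.4 CPM) and the lowest for YALI1_B19217g (84.7, 84.5 and 68.8 CPM). The other 6 libraries held 41.9 to 48.2 CPM of the former and 43.7 to 51.8 CPM of the latter. YALI1_A22440g had the tightest levels of these transcripts, at 64.5, 59.96 and 61.3 CPM in yl_10, 37.9, 39.2 and 42.2 in yl_11, and 40.1, 40.5 and 37.4 in yl_12. Its log2 differences were 0.64 (SE 0.05) from yl_11 and 0.65 (SE 0.05) from yl_12.

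YALI1_B28454g (XM_501197.1) was also among these 10 and had the highest level per length (FPKM) of all 87 members. Its CPM values were 857, 822 and 846 in yl_10, 479, 455 and 514 in yl_11, and 509.8, 535 and 435 in yl_12. Per length, its mean was 710.4 FPKM in yl_10, 407 in yl_11 and 416 in yl_12, and the log2 CPM differences were 0.80 (SE 0.05) and 0.78 (SE 0.09). In yl_10 the 3 libraries differed from each other by less than the other strains' libraries did.

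**Figure D2:**
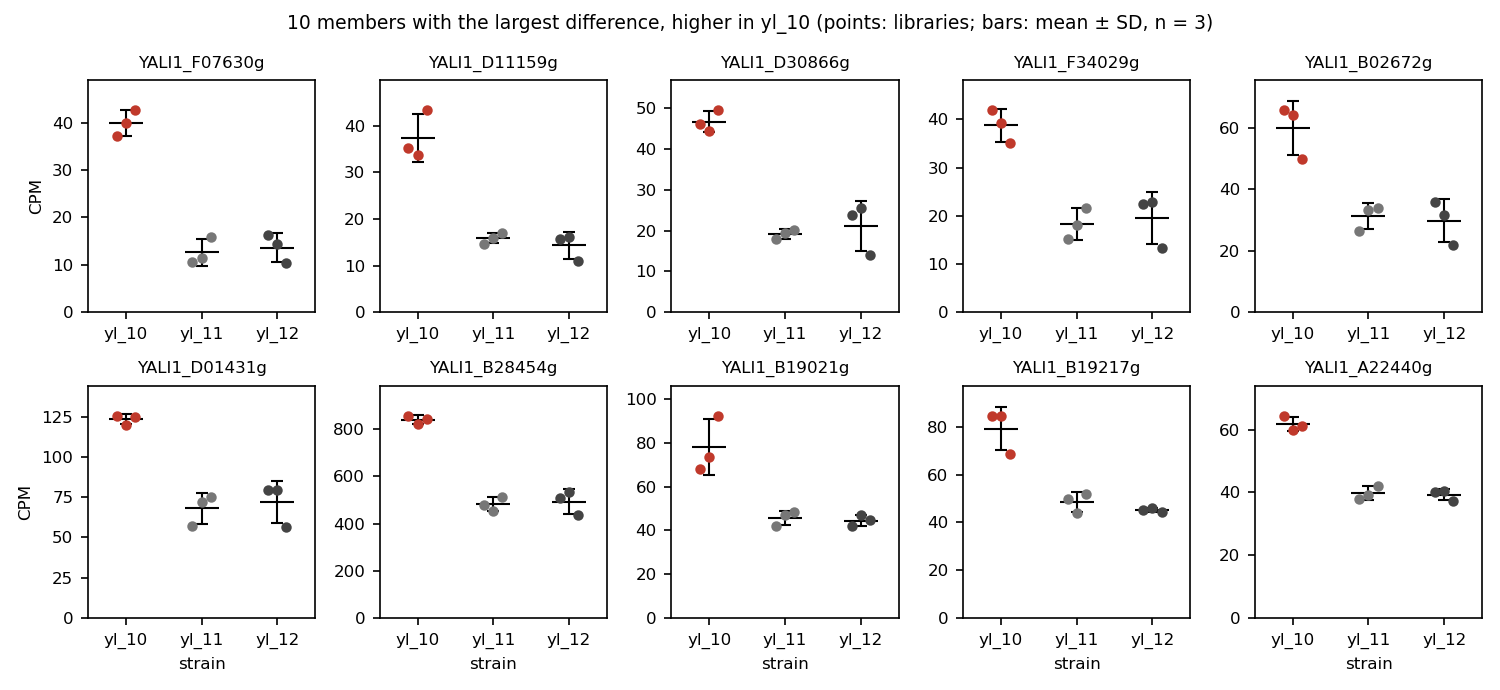
CPM (y axis, from 0) by strain (x axis) of the 10 higher members with the largest difference, with 1 point per library and the mean ± SD over 3 libraries. The yl_10 points lie above all others in each panel, which the rule requires. For YALI1_F07630g they run from 37.2 to 42.6 CPM, against at most 16.2 in the other strains.

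Next in level among the higher members were YALI1_A10708g, YALI1_C16961g, YALI1_F08705g and YALI1_F17472g. Mean levels per length over the 9 libraries were 399.7, 329, 293 and 191 FPKM, against 511 FPKM for YALI1_B28454g. YALI1_A10708g was at 441 ± 17 CPM (SD, n = 3) in yl_10, 339 ± 28 in yl_11 and 309.7 ± 24 in yl_12. YALI1_C16961g was at 721 ± 63 CPM in yl_10, 576 ± 36 in yl_11 and 583 ± 32 in yl_12. YALI1_F08705g had 405 ± 10 CPM in yl_10, 317 ± 19 in yl_11 and 321 ± 11 in yl_12. YALI1_F17472g had 263 ± 39 CPM in yl_10, 165 ± 8.5 in yl_11 and 181 ± 11 in yl_12. The differences of these 4 were 1.23-fold to 1.59-fold.

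Of the higher members, 22 differed by at least 0.5 from both strains, and 11 of these have not been named yet. They are named here after their values were seen. YALI1_F16270g was the most abundant of the 11 in mean CPM, with means of 325 CPM in yl_10, 219.9 in yl_11 and 216 in yl_12. YALI1_B15928g followed with 117, 81.6 and 77.2 CPM, and YALI1_A14513g, which has the longest coding sequence of all members at 3618 bp, with 114, 75.7 and 69.7 CPM. Means in yl_10, yl_11 and yl_12 were 93.6, 65.9 and 57.5 CPM for YALI1_B25676g, and 85.1, 51.6 and 58.1 CPM for YALI1_C02550g. They were 58.7, 40.2 and 37.4 CPM for YALI1_E13899g. In these 6 transcripts the means of yl_11 and yl_12 were close by the rule, and which of them was lower varied.

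For the 5 others the means in yl_10 were lower. YALI1_C25877g read 50.2, 30.2 and 34.3 CPM in yl_10, yl_11 and yl_12, and YALI1_F06578g 18.7, 11.6 and 13.0 CPM. YALI1_D08382g read 40.5, 27.2 and 26.8 CPM, YALI1_D08684g 35.0, 24.4 and 24.7 CPM, and the shortest higher member, YALI1_A03688g with 519 bp, 18.3, 11.9 and 12.4 CPM. The 22 members with a difference of at least 0.5 span 1.41-fold to 3.20-fold against yl_11 and 1.43-fold to 2.97-fold against yl_12.

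Most higher members differed by less. There were 14 with a smaller difference of 0.4 to 0.5 and 35 of 0.3 to 0.4, the latter at 1.24-fold to 1.47-fold against yl_11 and 1.23-fold to 1.48-fold against yl_12. Over all 71 the median log2 difference was 0.47 from yl_11 and 0.45 from yl_12, where the median over the 4447 transcripts was 0.02 and 0.06. The empty space on the log2 scale between the lowest yl_10 library and the highest other library ran from 0.01 to 1.20 with a median of 0.22, and it exceeded 0.1 in 58 of 71. No member had a within-strain SD, pooled over the strains, above its smaller difference. The spread in a single strain could be wider, as in yl_10 for the lower member YALI1_F32880g. Its yl_10 libraries lay at -0.16, -0.18 and -0.85 relative to the mean of the yl_11 and yl_12 libraries. The size of its smaller difference was 0.36. The median pooled within-strain SD on the log2 scale was 0.13 for the higher and 0.13 for the lower members, against 0.09 over the 4447. At the threshold, YALI1_E18895g (log2 differences of 0.35 and 0.30) and YALI1_C16961g (0.32 and 0.30) were just inside. The transcripts YALI1_F38918g (0.297 and 0.363) and YALI1_D17795g (0.301 and 0.2997) were just outside. The lowest count behind any value was 76 for the higher members and 75 for the lower ones.

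The 16 lower members had smaller differences, and none reached 0.5 from both strains. The largest was YALI1_E36494g (XM_504616.1), with 143, 143 and 89.8 CPM in yl_10, 206, 154 and 215 in yl_11, and 163, 153 and 206 in yl_12. Its yl_10 replicate 3 lay far below the other 2, and the lowest of the other 6 libraries was 0.10 above the highest yl_10 library on the log2 scale. The log2 differences were -0.63 (SE 0.27) and -0.49 (SE 0.26). Without the 3 libraries that stand apart the difference from yl_12 was -0.14.

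YALI1_E31369g (XM_504424.1), the shortest member with 330 bp, was steadier, at 17.9, 19.5 and 15.9 CPM in yl_10, 23.6, 24.5 and 25.6 in yl_11, and 24.1, 25.7 and 23.8 in yl_12. Both log2 differences were -0.47 (SE 0.09). YALI1_F28590g (XM_505716.1) was at 299.7, 329 and 239 CPM in yl_10, 427, 403 and 465 in yl_11, and 393, 416 and 365 in yl_12. Both transcripts stayed members in each of the 16 alternative settings. YALI1_D10495g was the only other lower member of which this was true, with 32.8, 34.8 and 31.0 CPM in yl_10, 40.9, 44.1 and 40.8 in yl_11, and 47.4, 44.7 and 40.8 in yl_12.

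YALI1_D03412g and YALI1_C28093g had yl_10 libraries close together. The former was at 74.6 ± 2.7 CPM (SD, n = 3) in yl_10, 96.4 ± 6.1 in yl_11 and 107 ± 9.8 in yl_12. The latter was at 116 ± 3.9 CPM in yl_10, 146 ± 5.9 in yl_11 and 153 ± 9.2 in yl_12. YALI1_D13545g had means of 429 ± 44, 542 ± 3.4 and 615 ± 16 CPM. Its libraries in yl_12 all lay above those in yl_11.

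YALI1_F07093g had the highest level per length among the lower members, with 358 FPKM in yl_10, 451 in yl_11 and 496 in yl_12. YALI1_E20963g was at 309.5, 389 and 411 FPKM. Levels of the scarcer YALI1_E23854g, YALI1_A22105g and YALI1_F32880g were 18.6 ± 2.4, 28.3 ± 5.9 and 17.0 ± 4.2 CPM in yl_10. They were 24.7 ± 1.5, 36.8 ± 4.0 and 22.6 ± 2.0 CPM in yl_11. YALI1_F14766g was at 123 ± 20 CPM in yl_10, 154 ± 14 in yl_11 and 160.4 ± 9.5 in yl_12. For YALI1_F32880g the empty space between the groups was 0.01 on the log2 scale. YALI1_C10293g (-0.30 and -0.39) and YALI1_C30255g (-0.32 and -0.49) were just inside the threshold, and YALI1_E08997g (-0.2998 and -0.48) and YALI1_D24361g (-0.28 and -0.41) just outside it. Over the 16 the median log2 difference was -0.35 from yl_11 and -0.46 from yl_12, and 12 of the 16 differed more from yl_12.

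**Figure D3:**
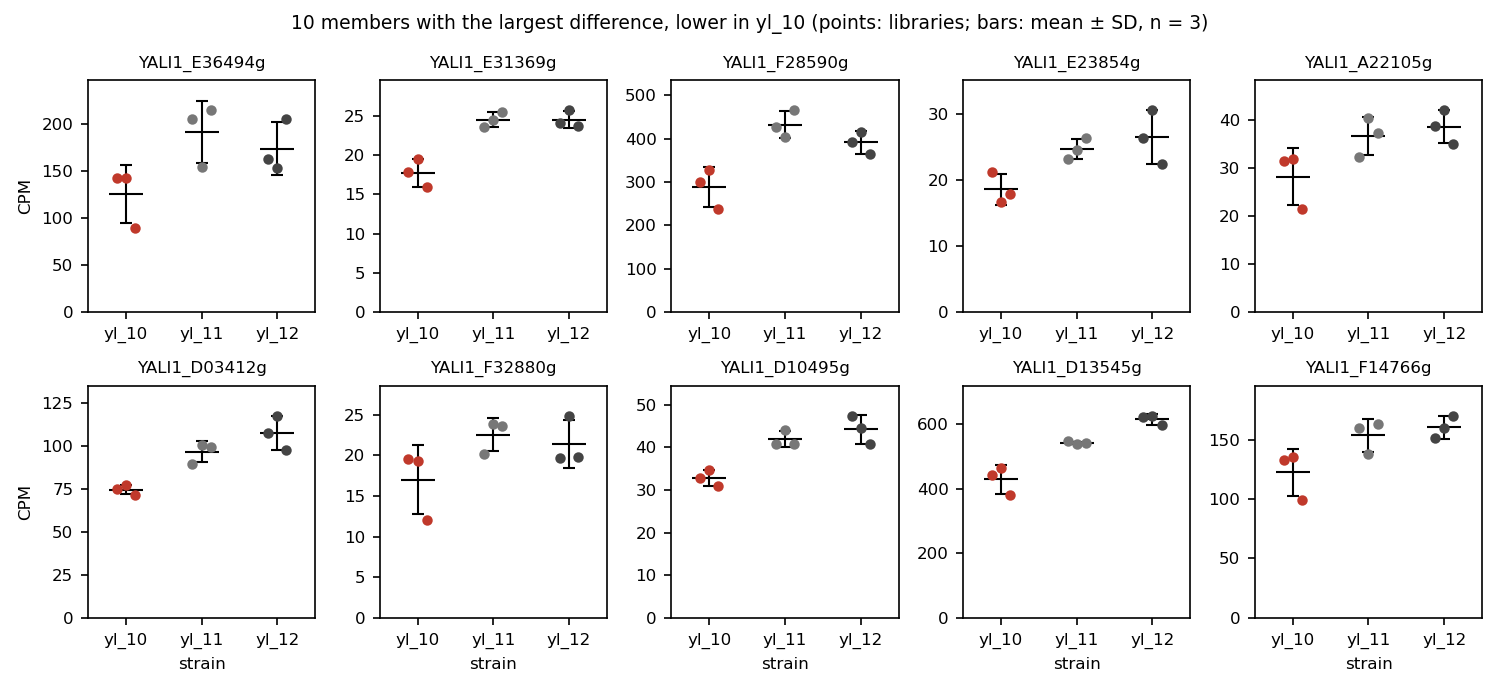
CPM (y axis, from 0) by strain (x axis) of the 10 lower members with the largest difference, with 1 point per library and the mean ± SD over 3 libraries. The lowest yl_10 point is replicate 3 in all panels but that of YALI1_E23854g, at 89.8 CPM against 143 and 143 for YALI1_E36494g.

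In the lower members the yl_10 library that stands apart lay further from its partners than in the higher members. For the lower members yl_10 replicate 3 was the lowest of its strain in 15 of 16, and its log2 level was below the mean of the other 2 yl_10 libraries in all 16, with a median difference of -0.25. Among all 4447 transcripts it was below them in 62.0%, with a median of -0.05. Among the higher members it was below them in 42 of 71, with a median of -0.07. Relative to the mean of the 6 other libraries, the median log2 level of the higher members was 0.50, 0.50 and 0.41 in yl_10 replicates 1, 2 and 3. That of the lower members was -0.32, -0.32 and -0.59. In the other strains, yl_12 replicate 3 was the lowest of its strain for 46 of the 71 higher members (64.8%, against 47.7% of the 4447). It lay below its partners by a median of -0.19 there, against -0.03 over the 4447. Likewise, yl_11 replicate 1 was the lowest of its strain for 39 of the 71 (54.9%, against 40.2%), with a median of -0.09 against -0.01. Among the 16 lower members, yl_12 replicate 3 was the lowest of its strain in 11 and yl_11 replicate 1 in 8. yl_10 replicate 3 is also the shallowest library, and the part of depth or of its deviation in the result was not tested.

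**Figure D4:**
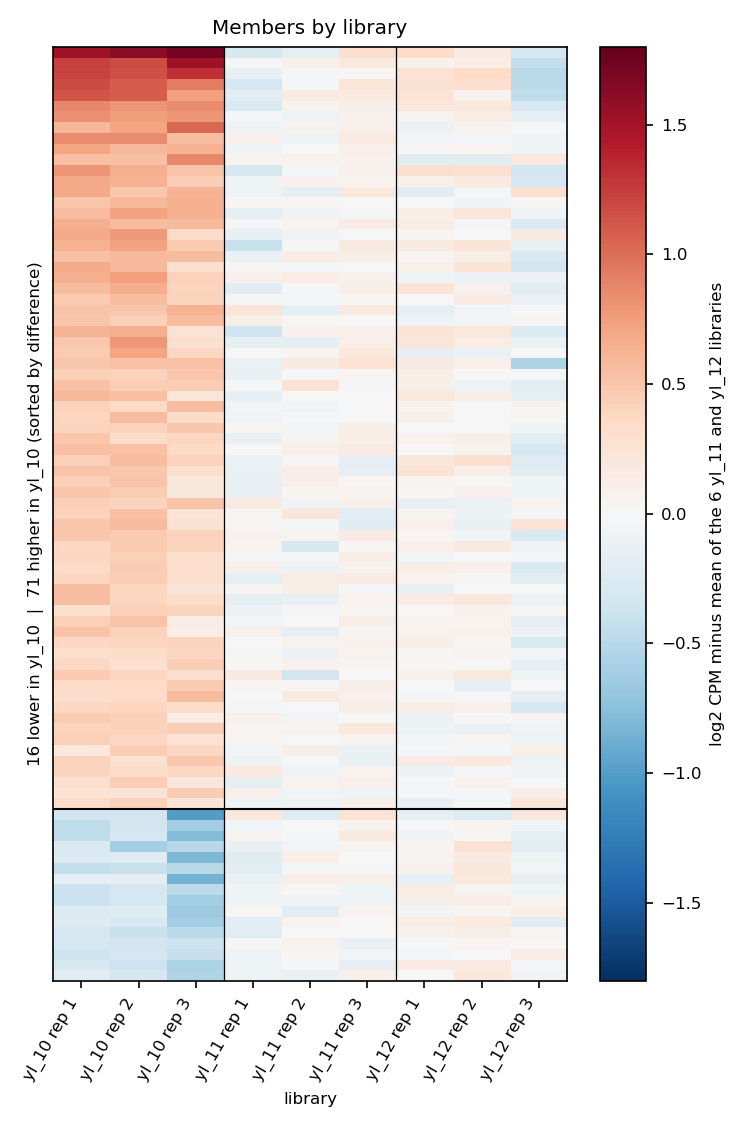
Log2 CPM of the 87 members (rows) in the 9 libraries (columns), each minus the mean of the 6 yl_11 and yl_12 libraries, red above and blue below it. The higher members are red in the 3 yl_10 columns (medians 0.50, 0.50 and 0.41), and the lower members are darkest in yl_10 replicate 3 (median -0.59).

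The summed level of the higher members was 7078 ± 29 CPM (SD, n = 3) in yl_10, 4990 ± 131 in yl_11 and 4934 ± 207 in yl_12. That is 0.708%, 0.499% and 0.493% of the counts. The lower members summed to 1880 ± 215 CPM in yl_10, 2479 ± 86 in yl_11 and 2581 ± 87 in yl_12. In neither set did the yl_10 libraries overlap the others, which the rule fixes, and the spread in yl_10 was wider for the lower set.

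The rule was also applied without each library in turn, and the left-out library was compared with the other strains for the transcripts then chosen. It took no part in the differences or the overlap criterion, but the abundance window kept the mean of all 9 libraries. The transcripts chosen are not the same as the members: 63 of the 72 higher ones without yl_10 replicate 1, 66 of 78 without replicate 2 and 66 of 136 without replicate 3 were members. Without yl_10 replicate 1 it chose 72 higher transcripts, and the left-out library lay above all 6 libraries of the other strains in 70 of them, against 32.1% of the 4447. Without yl_10 replicate 2 it did so in 73 of 78, against 33.5%. Without yl_10 replicate 3 the rule chose 136, and that library lay above the other 6 in 81 of them (59.6%), against 28.0%. The median difference of the left-out library from the mean of the 6 was 0.48, 0.47 and 0.22 in these 3 cases, where the libraries used for choosing gave 0.45, 0.44 and 0.45. For the lower direction the left-out library lay below the other 6 in 24 of 30, 18 of 27 and 8 of 11 without yl_10 replicates 1, 2 and 3, against 9.58%, 11.3% and 21.9%. There it lay below the mean of the 6 by a median of 0.24, 0.29 and 0.41. The libraries used for choosing gave 0.42, 0.44 and 0.38, so the difference was smaller in left-out replicates 1 and 2. A left-out yl_11 library lay below the 3 yl_10 libraries in 93.6% to 97.3% of the transcripts chosen as higher without it, against 33.7% to 36.2% of the 4447. A left-out yl_12 library did so in 91.4% to 95.0%, against 42.6% to 48.3%. Of transcripts chosen as lower, a left-out yl_11 library lay above the 3 yl_10 libraries in 74.1% to 93.75%, against 20.7% to 23.8% of the 4447. For a left-out yl_12 library this was 81.25% to 100%, against 19.5% to 22.2%. The other 8 libraries are shared between choosing and comparing, so these shares are a description.

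**Figure D5:**
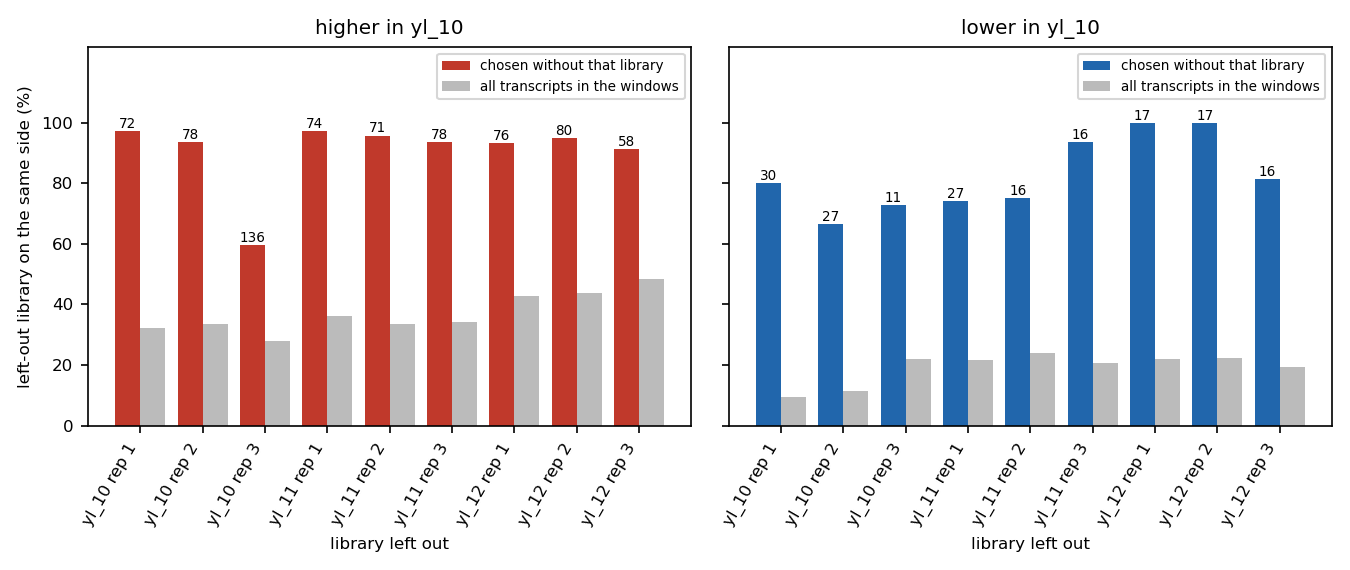
Share of transcripts (y axis, percent) for which a left-out library (x axis) lay on the same side, for transcripts chosen as higher (left) or lower (right) without it, with their number above each coloured bar, and for all 4447 in grey. The bar of yl_10 replicate 3 is the lowest of the higher direction, at 59.6% of 136.

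Leaving out 1 library changed how many transcripts met the rule. The higher count of 71 became 136 without yl_10 replicate 3 and stayed between 58 and 80 without any 1 other library. The lower count of 16 became 30 without yl_10 replicate 1, 27 without yl_10 replicate 2 and 27 without yl_11 replicate 1, and 11 without yl_10 replicate 3. Of the 71 higher members, 24 were chosen again in each of the 9 cases, and of the 16 lower members 3. Without yl_10 replicate 3, 66 of the 71 and 7 of the 16 were chosen again. Without yl_12 replicate 3, 46 of the 71 were. Of the 25 lost, 18 had yl_11 and yl_12 no longer within 0.2 and 12 fell under a difference of 0.3, and a member can miss both. YALI1_F07630g was lost there and without yl_11 replicate 3, in both cases because yl_11 and yl_12 were then more than 0.2 apart. Without all 3 libraries that stand apart, the rule chose 107 higher and 18 lower transcripts, with 49 and 7 of the members among them.

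The scaling also bore on the balance of directions. With TMM factors 62 transcripts were higher and 23 lower, and 56 of the 71 and 14 of the 16 members were among them. Scaling by library totals put the median over all 4447 transcripts at 0.02 above yl_11 and 0.06 above yl_12, and TMM factors put it at 0.00 and 0.01. When the threshold of 0.3 was dropped and all else kept, 500 transcripts were higher and 137 lower with library totals, and 321 and 245 with TMM factors.

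In the fit of edgeR over all 6147 tested features, each member passed the filter on low counts. Of the 71 higher members, 47 were called lower in yl_11 than in yl_10 at an adjusted p below 0.05, against 2.49% of all features. Of the 16 lower members, 9 were called higher in yl_11, against 1.68%. The counts for yl_12 against yl_10 were 54 of 71 lower (7.81% of all) and 14 of 16 higher (7.00%). Between yl_12 and yl_11 the call was made for 1 member (7.04% of all features). The rule used these contrasts, so nothing is read from these counts. The 56 calls of yl_11 against yl_10 (4.16% of all features in either direction) became 24 without yl_10 replicate 1 and 32 without yl_10 replicate 2. They became 32 without yl_11 replicate 1 and 26 without yl_11 replicate 2. Shares over all features are not given for these reduced fits, so nothing is read from the changes.

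Position in the genome did not enter the rule. When the version of the transcript ID was ignored, 84 of the 87 members had a locus tag in RefSeq's table for assembly ASM176148v1, 68 higher and 16 lower. With the version kept, 10 members matched. Gene order is that of this assembly and was not checked in the sequenced strains. The annotated span equalled the length behind the FPKM values for 70 of the 84. No member overlapped another annotated gene with a transcript in that table. By the letter of the tag, which names the chromosome, the higher members were 20 of 911 placed transcripts on F (2.20%), 14 of 741 on D (1.89%), 12 of 645 on B (1.86%), 7 of 545 on C (1.28%), 5 of 391 on A (1.28%) and 10 of 985 on E (1.02%). The lower members numbered 4 on D, 4 on E, 4 on F, 3 on C, 1 on A and 0 on B. Members were thus spread over several chromosomes in both directions.

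Of the 68 placed higher members, 10 (14.7%) lay next to another higher member in the order of annotated genes, in 5 pairs. Whether this is more than the number of members alone would give was not tested. None of the 16 lower members lay next to another lower member. The first pair, YALI1_B28454g and YALI1_B28472g, continued on one side into a transcript that missed the rule because yl_11 and yl_12 differed by more than 0.2. That neighbour, YALI1_B28430g, was at 20.7 CPM in yl_10, 6.69 in yl_11 and 8.01 in yl_12, so that the log2 differences from yl_11 and yl_12 were 1.63 and 1.38 for it, 0.80 and 0.78 for YALI1_B28454g, and 0.49 and 0.47 for YALI1_B28472g. On the other side YALI1_B28499g had -0.18 and -0.37. YALI1_B28472g itself was at 127, 134 and 123 CPM in yl_10, 89.5, 90.0 and 93.7 in yl_11, and 91.4, 102 and 84.5 in yl_12. The 3 neighbours thus differed less with each step in the gene order of the assembly, while their levels did not follow this order.

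The second pair was YALI1_D11666g (88.9 ± 6.1, 63.4 ± 1.5 and 67.0 ± 1.5 CPM in yl_10, yl_11 and yl_12) and YALI1_D11686g (58.8 ± 4.8, 41.4 ± 3.8 and 46.4 ± 5.2 CPM). The third was YALI1_E07099g (59.4 ± 6.4, 45.1 ± 3.3 and 45.4 ± 2.6 CPM) and YALI1_E07121g (53.1 ± 1.2, 42.3 ± 2.1 and 40.8 ± 6.7 CPM). YALI1_F06544g (113.7 ± 3.5, 81.0 ± 5.0 and 85.6 ± 4.5 CPM) stood beside the scarcer YALI1_F06578g (18.7 ± 1.7, 11.6 ± 2.2 and 13.0 ± 1.7 CPM). The last pair was YALI1_F31687g (36.9 ± 1.8, 27.3 ± 4.6 and 29.3 ± 2.9 CPM) and YALI1_F31689g (47.2 ± 1.7, 34.1 ± 4.4 and 37.0 ± 3.0 CPM). The smallest log2 difference from yl_11 in the 5 pairs was 0.329, for YALI1_E07121g, where the rule required at least 0.3.

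Genes beside members that were not members themselves included YALI1_B28430g, with the values given above. The 71 transcripts in the windows directly next to higher members had a median difference, averaged over both strains, of 0.04 on the log2 scale, with quartiles of -0.04 and 0.14. Over the 4218 placed transcripts it was 0.04, with quartiles of -0.04 and 0.13. For the 15 next to lower members the median was -0.06, with quartiles of -0.13 and 0.05.

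The rule set windows on length and abundance, and members did not fill these evenly. The higher members had a median of 29.9 FPKM over the 9 libraries, the lower 69.3 and all 4447 transcripts 51.9. Among the 1140 transcripts of 10 to 30 CPM, 27 were higher members (2.37%), and among the 1670 of 30 to 100 CPM 31 were (1.86%). Of the 1142 of 100 to 300 CPM 9 were higher members (0.788%), and of the 495 of 300 to 1000 CPM 4 (0.808%). The lower members made up 0.526%, 0.180%, 0.350% and 0.606% of these bands. Median coding lengths were 1251 bp for the higher members, 922.5 bp for the lower and 1305 bp for all 4447.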

How the data were processed

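RNA of 3 strains with 3 libraries each was sequenced in 150 bp paired-end mode, as the labels' protocols say. The authors deposited whole-number read counts, not normalised, and FPKM values, which equal the count divided by coding length and library total. The submitters' processing notes list HTSeq 0.6.1 and DESeq 1.18.0, without a role. How reads were aligned, to which build and with what strand setting was not given in the sources used here, so reads of antisense genes or near-identical copies may be mixed.

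Lengths were recovered from count and FPKM, and members were chosen on log2 CPM with library totals. Members, lists and alternatives were chosen with earlier results of these data known. Counts were tested in 1 edgeR 4.0.16 fit (R 4.3.3; quasi-likelihood test, TMM, default filter, robust) of all 9 libraries, adjusted by Benjamini-Hochberg over 6147 features. Rule and fit were also run on simulated counts in which no library stood apart from its partners. That run checks the calculation and says nothing about these data. limma 3.58.1 on log2(FPKM + 1) and DESeq2 1.42.0 were alternatives. SEs are from the log2 CPM of 3 libraries per strain.

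Named transcripts were, per direction, the 10 with the largest smaller difference, the 5 highest in FPKM, the neighbouring pairs (5 tied, so all were named) and the 2 on each side of the threshold. Others are marked where named. The table of RefSeq genes holds no product names, so no roles are given. Planned counts of promoter and protein patterns were not made, since no such sequences were used here.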

Additional observations from a re-analysis of the deposited data

How the results depend on the processing

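The number of members kept within 1.5 times of 71 and 16 with TMM factors, DESeq2 size factors, a pseudocount of 2, no length window, no abundance window and the replicate block (78 higher and 19 lower). It was 107 higher without the 3 libraries that stand apart. Of the 22 higher members lost there, 14 had yl_11 and yl_12 no longer within 0.2 and 14 fell under a difference of 0.3. Of the 9 lower members lost there, 3 and 9 did so. A member can miss both criteria. Leaving out 1 library gave 58 to 136 higher and 11 to 30 lower. Members called in yl_11 against yl_10 numbered 24 to 71 with 1 library left out and 47 to 78 otherwise, with 47 under the replicate block. In yl_12 against yl_10 they numbered 54 to 68 and 61 to 79. In yl_12 against yl_11, where 1 member was called by edgeR (9 at an unadjusted p below 0.05) and 1 by DESeq2, edgeR called 0 with library totals only (7 unadjusted), 0 with the replicate block (9 unadjusted) and 16 without the 3 libraries that stand apart. limma on FPKM called 0 (4 unadjusted), and leaving out 1 library gave 0 to 7 in edgeR (4 to 20 unadjusted). The share of all features called is given above for the main fit only, so nothing is read from these changes in calls. The cause of the changes was not tested. Log2 differences of the named transcripts kept their sign in every setting, and 1366 of their values stayed within the spread of libraries while 10 moved by more. Deviations of same-numbered libraries had correlations of -0.53 to 0.40 across the 4447 transcripts, and those of libraries with different numbers -0.52 to 0.66. Every negative value included 1 of the 3 libraries that stand apart, which do not all bear the same number. Without these libraries, pairs had 0.18 to 0.32 with the same number and 0.20 to 0.38 with different numbers. These correlations therefore cannot decide whether the numbers mark a pairing. The 3 libraries that stand apart deviated in a shared direction. Correlations were 0.48 for yl_10 replicate 3 with yl_11 replicate 1, 0.40 for it with yl_12 replicate 3, and 0.66 for yl_11 replicate 1 with yl_12 replicate 3. Differences near 0.3 rest on 3 libraries per strain and on as few as 75 counts.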

Other observations

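Outside the windows of length and abundance, the same differences were met mostly on the lower side at 10 CPM or more and mostly on the higher side below 10 CPM. Of 159 RefSeq transcripts at or above 1000 CPM, 0 were higher in yl_10 and 2 were lower. YALI1_F31587g (XM_505819.1) was at 1779, 1820.3 and 1425 CPM in yl_10, 1893, 2372 and 2345 in yl_11, and 2613, 2725 and 2001 in yl_12. YALI1_F14933g (XM_505280.1), with a coding length of 243 bp, was at 1232, 1164 and 1088 CPM in yl_10, 1572, 1488 and 1473 in yl_11, and 1481, 1515 and 1647 in yl_12. In both, all 3 yl_10 libraries were the lowest of the 9, which the rule requires. These and the features below were chosen after their values were seen.

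Of 232 transcripts of 10 to below 1000 CPM with lengths outside the window, 1 was higher and 5 were lower. The higher one was YALI1_C12513g (XM_501626.1), with 4044 bp, at 22.5 ± 2.0 CPM (SD, n = 3) in yl_10, 17.0 ± 1.6 in yl_11 and 15.8 ± 1.2 in yl_12. The 5 lower ones had coding lengths of 150 to 246 bp. The largest of their differences was that of XM_002143002.1, at 6.83 ± 2.23 CPM in yl_10, 13.4 ± 1.0 in yl_11 and 12.9 ± 5.4 in yl_12. Of 214 features with a running number and at least 10 CPM, 0 were higher and 3 lower, and Novel00042 was at 188, 191 and 141 CPM in yl_10, 205 to 238 in yl_11 and 206 to 232 in yl_12. Below 10 CPM, 20 of 1121 RefSeq transcripts were higher and 3 lower.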
